A study of Mus musculus with 10 samples.

Results

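Of 10 mouse hippocampal RNA libraries, 2 held almost no transcript of Ttr (transthyretin), and they were compared with the other 8. The 2 sets were chosen on measured Ttr: choroid-poor libraries had under 100 CPM (counts scaled to the library total) and choroid-containing libraries over 1000 CPM. Choroid-poor were control replicate 2 at 38.2 CPM and circTau6 replicate 5 at 27.8 CPM, and the choroid-containing library nearest to the limit was circTau6 replicate 2 at 1660 CPM. No library lay between these values. All 10 samples were hippocampus of hMapt mice at 6 months of age. In 5 the treatment was AAV-circTau6 injection, for which the design text gives 80 days, and 5 were labelled control, with no interval of their own given, so that each treatment held 1 choroid-poor and 4 choroid-containing libraries. hMapt names a human tau transgene, AAV is an adeno-associated virus used to deliver genes, and circTau6 is a circular RNA of the tau gene. The protocol text speaks of control-injected mice and does not describe the control vector.

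The choroid plexus is a fringe of epithelium over a leaky capillary core that hangs in the brain's ventricles, including the one that borders the hippocampus. Its epithelial cells secrete cerebrospinal fluid by moving ions and water, seal their borders with tight junctions, and release carriers such as transthyretin, which binds thyroxine and retinol-binding protein. Ependymal cells, which line the ventricle wall, carry bundles of motile cilia that move the fluid. The labels record no measure of how much of either tissue a dissected sample holds. In bulk tissue, fewer choroid plexus cells and less RNA per cell cannot be told apart.

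3 promoters are printed as examples that hold a motif, from genes whose epithelial and ciliated transcripts are described below. Tekt1 has 2 RefSeq promoters, and the first with a match is shown. Sequences are from RefSeq on GRCm38.p6 and run over the 250 bases before the annotated start, 5′ to 3′ on the strand of the gene. Mfrp lies at chr9:44101520-44101769 (+), Abca4 at chr3:122044210-122044459 (+) and Tekt1 at chr11:72361883-72362132 (−). In Mfrp and Abca4 the capitals mark TAATCC, the core of the motif that the choroid plexus factor OTX2 binds, here read on the opposite strand as GGATTA. In Tekt1 they mark GTTGCC, a half-site of the motif bound by RFX factors of ciliated cells, and its reverse, GGCAAC.
Mfrp: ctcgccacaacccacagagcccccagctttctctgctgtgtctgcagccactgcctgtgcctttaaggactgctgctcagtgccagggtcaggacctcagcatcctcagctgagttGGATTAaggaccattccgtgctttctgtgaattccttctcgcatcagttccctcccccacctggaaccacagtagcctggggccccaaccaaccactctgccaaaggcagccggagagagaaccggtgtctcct
Abca4: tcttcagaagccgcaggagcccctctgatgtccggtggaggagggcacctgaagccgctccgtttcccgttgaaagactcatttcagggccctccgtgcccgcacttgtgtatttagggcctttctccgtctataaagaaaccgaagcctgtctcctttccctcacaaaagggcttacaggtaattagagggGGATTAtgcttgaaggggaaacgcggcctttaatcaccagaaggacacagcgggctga
Tekt1: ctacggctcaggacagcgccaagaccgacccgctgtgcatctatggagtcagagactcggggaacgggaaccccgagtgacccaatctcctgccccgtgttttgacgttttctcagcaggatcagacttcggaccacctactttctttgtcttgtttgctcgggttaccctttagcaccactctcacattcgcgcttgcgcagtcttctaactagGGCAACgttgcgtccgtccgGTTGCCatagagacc
The match begins 134 bases before the start in Mfrp and 58 bases before it in Abca4, and in Tekt1 the matches begin 35 and 15 bases before it. Both motifs were searched on both strands in windows from 250 bases before to 50 after each start, and their letters do not overlap each other. TAATCC was found in 7.06% of all 32851 RefSeq promoters and in 6 of 57 promoters (10.5%) of the choroid plexus genes. GTTGCC was found in 12.5% of all promoters, 17.5% of those of the choroid plexus genes, and 11 of 23 (47.8%) of those of an ependymal and motile cilia list. These matches describe letters in a window and show no binding.

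The libraries were alike in depth and in general RNA measures. Total counts ran from 14762952 to 17647138 per library, and 3 counts, the limit that a count of 0 allows for counting error, equal at most 0.203 CPM. Exact two-sided permutation tests over the 45 choices of 2 of 10 libraries, which can give no p below 0.0222, gave p = 0.533 for total count, 0.2 for genes detected, 0.867 for the mitochondrial share and 0.556 for the ribosomal protein share, and adjusted over the 4 measures each is 0.741 or more. Markers of the hippocampal fields were present throughout: the CA1 list (Wfs1, Fibcd1 and others) summed to 438 to 542 CPM in the containing libraries and to 502 and 500 CPM in the poor ones, and the dentate granule list (Prox1, Calb1 and others) to 420 to 551 CPM and to 473 and 464 CPM. CircTau6 replicate 3 stood apart in 1 respect: its deviations from the mean followed transcript GC content with a correlation of 0.293 over 14371 genes, against -0.08 to -0.009 in the other 9 libraries. It was also the library with the highest Ttr, and the part of GC content in the results that use it was not tested.

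Ttr itself was 1 of the most abundant transcripts of the 8 libraries and a minor one in the 2. Control replicates 1, 3, 4 and 5 had 3288, 3961, 3092 and 2594 CPM, and circTau6 replicates 1 to 4 had 3438, 1660, 5120 and 4081 CPM. The poor libraries rested on 650 and 411 Ttr counts. By TPM, which scales to transcript length, Ttr ranked between 9 and 15 among all genes in the containing libraries, and 2188 and 3094 in control replicate 2 and circTau6 replicate 5. The fitted log2 fold change, poor against containing, was -6.66 ± 0.58 (SE), and since this value chose the libraries it carries no test. The containing libraries differed among themselves by about as much as their highest and lowest values show, 5120 against 1660 CPM, and this order was not used in choosing them.

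Genes of choroid plexus epithelium outside Ttr were low in the same 2 libraries, to very different degrees. Of 50 listed genes besides Ttr 49 passed the filter on low counts, and Lmx1b, at 0 to 1.24 CPM in every library, did not. Of the 49, 43 had both poor libraries below all 8 others on log2 CPM after TMM scaling, and edgeR called 38 lower and 0 higher at an adjusted p under 0.05. Over all 14396 genes tested, 6.55% had both poor libraries below all 8 and 4.28% above them, and edgeR called 2.26% lower. No p is given for any gene in this contrast, because the rule used it, and its calls are a description. The mean of the poor libraries ran from 0.777% to 100% of the mean of the containing ones, with a median of 12.7%. For 10 genes it was under 5%, for 30 between 5% and 50%, and for 9 it was 50% or more.

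**Figure D1:**
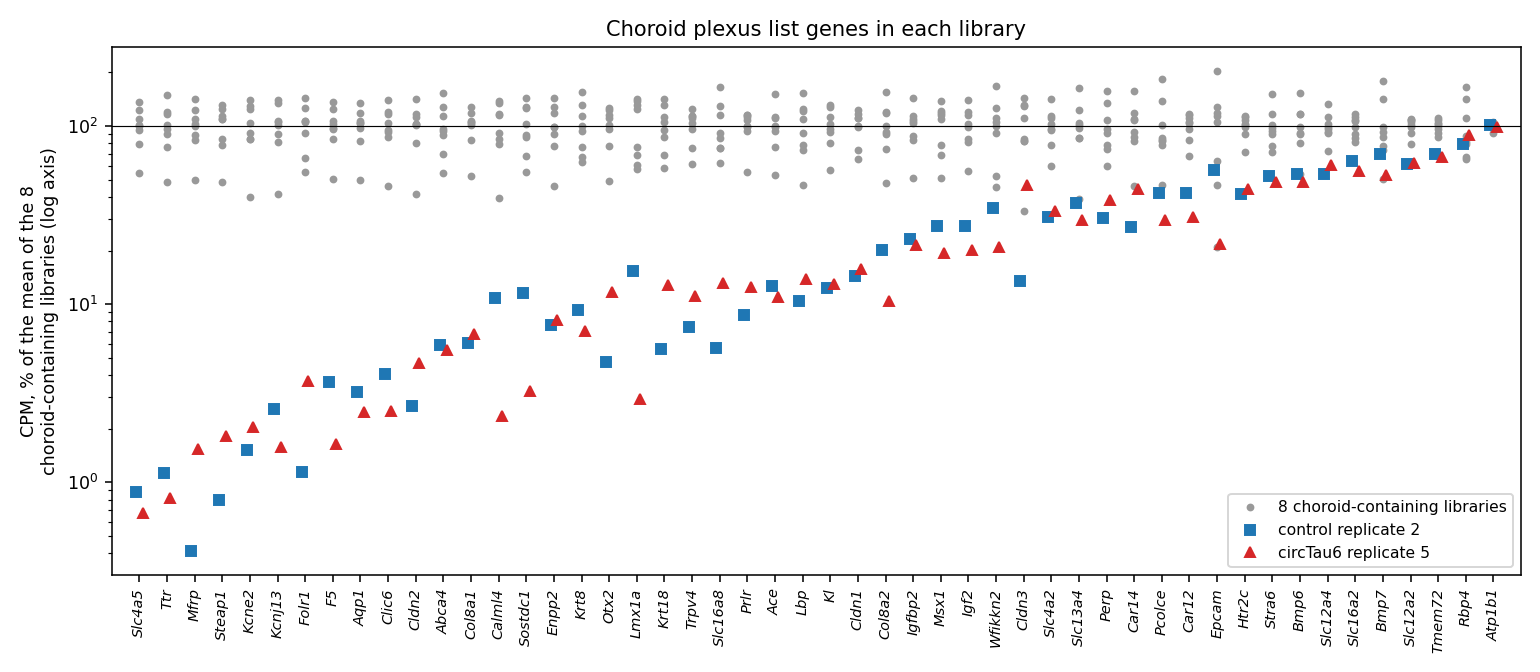
Each of the 50 tested genes of the choroid plexus lists, Ttr included, is plotted along the x axis, and its CPM in each library on the log y axis as a percentage of the mean of the 8 choroid-containing libraries. Squares (control replicate 2) and triangles (circTau6 replicate 5) climb together from under 1% for Slc4a5 to 100% for Atp1b1, and for 44 of the 49 genes besides Ttr both lie below all 8 grey points on this CPM scale.

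Among carriers and receptors, Folr1, the folate receptor that carries folate into the fluid, had 0.294 CPM in control replicate 2 and 0.948 CPM in circTau6 replicate 5, against 14.3, 27.2 and 36.8 CPM as the lowest, median and highest of the containing libraries. Kl, which encodes klotho, a coreceptor for a fibroblast growth factor, had 27.5 and 28.9 CPM against 125, 221 and 293 CPM. Prlr, the prolactin receptor, had 5.58 and 8.06 CPM against 35.4, 67.2 and 74.3 CPM. For these 3 genes the poor libraries lay far below all others, at log2 fold changes of -5.39 ± 0.64 (SE), -2.97 ± 0.37 (SE) and -3.23 ± 0.36 (SE). Enpp2, which encodes the lysophosphatidic acid-making enzyme autotaxin and is also made by oligodendrocytes, kept 185 and 196 CPM against 1114, 2374 and 3468 CPM. Htr2c, the serotonin receptor 2C, which neurons also express, kept 41.5 and 43.9 CPM against 71.3, 101 and 113 CPM, a log2 fold change of -1.21 ± 0.15 (SE). Rbp4, the retinol carrier that transthyretin binds, had 4.4 and 4.94 CPM, inside the containing range of 3.63 to 9.21 CPM.

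The transporters that make cerebrospinal fluid showed the widest spread. Slc4a5, a sodium bicarbonate cotransporter, had 0.352 and 0.271 CPM against 21.9, 40.3 and 55.0 CPM, a log2 fold change of -6.95 ± 0.66 (SE). Aqp1, the water channel of the apical membrane, had 0.705 and 0.542 CPM against 10.9, 22.9 and 29.7 CPM. The potassium channel subunit Kcne2 had 0.352 and 0.474 CPM against 9.19, 22.5 and 32.6 CPM, and the potassium channel Kcnj13 0.998 and 0.61 CPM against 16.1, 40.1 and 54.0 CPM. All 4 kept at most 2.85% of their containing mean in the poor libraries. Slc13a4, a sulfate transporter, kept 16.2 and 12.9 CPM against 17.1, 43.4 and 71.9 CPM, so its poor values lay only just below circTau6 replicate 2. Slc12a2, the sodium, potassium and chloride cotransporter NKCC1, which other brain cells also express, kept 105 and 108 CPM against 136, 177 and 188 CPM. Atp1b1, a subunit of the sodium pump and abundant in neurons, lay inside the containing range, with 1950 and 1919 CPM against 1758 to 2026 CPM. Abca4, a lipid flippase whose promoter is printed above, had 1.88 and 1.76 CPM against 17.6, 30.3 and 49.1 CPM.

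Junction genes, transcription factors and secreted products followed the same order of sizes. The tight junction claudin Cldn2 had 0.705 and 1.22 CPM against 10.9, 27.0 and 37.3 CPM, and the keratin gene Krt18 had 0.587 and 1.35 CPM against 6.17, 10.6 and 14.9 CPM. Cldn3 and Epcam, at no more than 1.26 CPM in any library, had overlapping groups. Otx2, a homeodomain factor needed to make and keep choroid plexus, had 1.06 and 2.64 CPM against 11.1, 23.9 and 28.5 CPM. Mfrp, a frizzled-related membrane protein, had 0.235 and 0.881 CPM against 28.2, 57.7 and 80.9 CPM, and F5, coagulation factor V, had 4.05 and 1.83 CPM against 56.3, 111 and 152 CPM. Igf2, an insulin-like growth factor made by choroid plexus and by meninges, kept 56.4 and 41.5 CPM against 116, 208 and 289 CPM. Bmp6 and Bmp7, growth factors of the bone morphogenetic protein family, kept 51% and 61.4% of their containing means. Bmp7 had overlapping groups, and Bmp6, at 11.9 and 10.7 CPM against a lowest containing value of 11.9 CPM, lay at the edge of the range.

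The 8 choroid-containing libraries gave a test that the choice of sets did not use. In them edgeR fitted each gene against log2 Ttr CPM with treatment as a covariate, so that a slope of 1 means a doubling for each doubling of Ttr. Of 14395 genes, 190 rose with Ttr (1.32%) and 14 fell (0.0973%) at an adjusted p under 0.05. Of the 49 choroid plexus genes besides Ttr, 40 rose and 0 fell, 48 had a positive slope, and the median slope was 0.84. Enpp2 had a slope of 1.02 ± 0.05 (SE; edgeR adjusted p = 7.5e-09), Kcnj13 of 1.05 ± 0.08 (SE; edgeR adjusted p = 1.12e-06) and Slc4a5 of 0.81 ± 0.07 (SE; edgeR adjusted p = 7.16e-06). For the 10 genes besides Ttr that kept under 5% in the poor libraries the slopes lay between 0.81 and 1.10. Slc13a4, which kept 33.3%, had a slope of 1.15 ± 0.10 (SE; edgeR adjusted p = 3.83e-06), while Slc12a2 had 0.23 ± 0.06 (SE; edgeR adjusted p = 0.114) and Atp1b1 -0.08 ± 0.05 (SE; edgeR adjusted p = 0.547). The slope and the poor-against-containing difference share the 8 libraries, so the 2 are set side by side only.

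The number of rising genes rested largely on circTau6 replicate 2, the containing library with the lowest Ttr. Without it 14 genes rose and 1, Cadm1, fell. Of the 49 choroid plexus genes 10 then rose, 46 had a positive slope, and the median slope was 0.73. Without circTau6 replicate 3, 100 genes rose and 30 of the 49 choroid plexus genes did so, and without circTau6 replicate 4, 121 genes rose. Leaving out circTau6 replicates 2 and 3 together, the libraries farthest from the median Ttr, was an alternative added after the data were seen. It gave 12 rising genes, 10 of them among the 190 of the main fit. Of the 12, 6 were choroid plexus genes, and the median slope over the 49 was 0.76. Falling genes numbered 3 in that fit, none of them among the 14 that fell in the main fit.

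**Figure D2:**
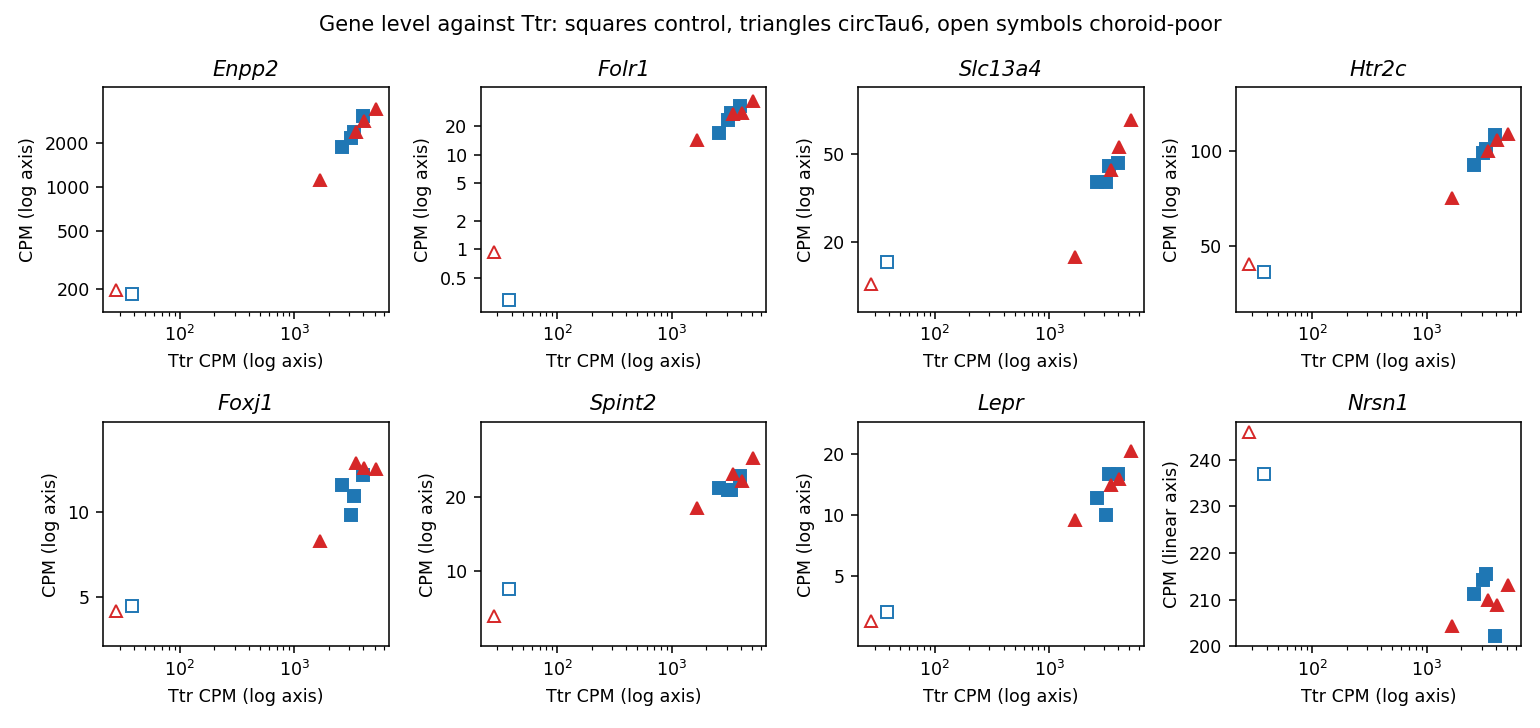
CPM of 8 genes (y axes, log scale except for Nrsn1, which is linear) against Ttr CPM (x axes, log scale) in all 10 libraries, with control as squares, circTau6 as triangles and the 2 choroid-poor libraries as open symbols. Enpp2, Folr1 and Slc13a4 climb with Ttr inside the 8 filled symbols, and Nrsn1 lies at 237 and 246 CPM in the poor libraries against 202 to 216 CPM in the others.

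Genes named for rising with Ttr outside the lists were also low in the poor libraries. Ecrg4, whose product is a secreted peptide precursor of choroid plexus, had 1.53 and 1.35 CPM against 12.3, 27.1 and 43.9 CPM, with a slope of 1.14 ± 0.08 (SE; edgeR adjusted p = 1.12e-06). Sulf1, a heparan sulfatase, had 10.04 and 11.2 CPM against 37.0, 83.5 and 114 CPM, with a slope of 0.95 ± 0.08 (SE; edgeR adjusted p = 2.92e-06). Cgnl1, a tight junction protein, Col9a3, a collagen chain, Slc31a1, a copper importer, and Ucp2, a mitochondrial carrier, had slopes of 0.76 to 0.80. All 6 had both poor libraries below all others. Fewer genes fell with Ttr. Snhg11, a long noncoding RNA of neurons, had a slope of -0.35 ± 0.05 (SE; edgeR adjusted p = 0.000473) and Srcin1, a neuronal adaptor protein, -0.22 ± 0.04 (SE; edgeR adjusted p = 0.0184). Cadm1, Kcnk9, Unc5d and Gpr101, named by the same rule, had slopes of -0.71 to -0.28. The poor and containing libraries overlapped in all 6, with Snhg11 at 2341 and 2492 CPM against 1625 to 2450 CPM.

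Across all genes the poor libraries had many lower transcripts and few higher ones. edgeR called 325 genes lower (2.26%) and 17 higher (0.118%). Among the lower ones, picked by this same contrast, 323 had both poor libraries below all 8 others, against 6.55% of all genes. Of the 325, 201 were more than 2-fold lower, and the median log2 fold change was -1.34. Choroid plexus lists held 39 of them with Ttr, the cilia list 11, and 269 were in none of the 29 lists. This count depended on single libraries: with circTau6 replicate 5 as the only poor one 20 were called, and with control replicate 2 as the only one 17. At an unadjusted p under 0.05 these fits had 1367 and 947 genes. Without circTau6 replicate 2, 500 genes were called lower.

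**Figure D3:**
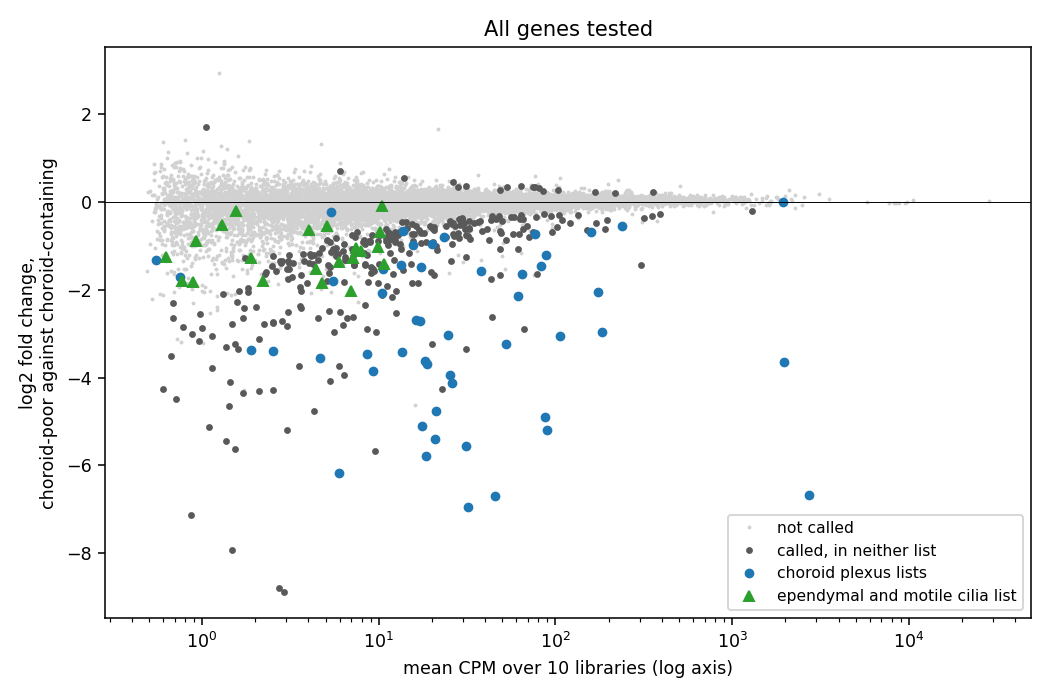
Each point is 1 of 14396 genes, with its mean CPM over the 10 libraries on the log x axis and its log2 fold change, choroid-poor against choroid-containing, on the y axis. Choroid plexus genes (circles) reach down to -6.95, genes of the cilia list (triangles) lie between -2.03 and -0.08, and the 17 genes called higher lie between 0.21 and 1.72.

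The lower genes that the naming rule picked outside the choroid plexus lists included protease inhibitors, transporters and a basement membrane collagen. Wfdc2, a secreted protease inhibitor of epithelia, had 0.117 and 0.0677 CPM against 2.5, 3.77 and 4.53 CPM, at a log2 fold change of -5.19 ± 0.46 (SE). Its poor values were 2 counts and 1 count, under 3 counts, so neither can be told from 0 and the size of the change is uncertain. Tmprss11a, a membrane serine protease, had 0 counts in both poor libraries and 1.75 to 4.66 CPM in the others, which is at least 35.9-fold lower against a floor of 3 counts over the 2 poor libraries together. Spint2, an inhibitor of membrane serine proteases, kept 8.4 and 6.57 CPM against 18, 22.5 and 28.9 CPM. Baiap2l1, an adaptor of the actin-rich apical membrane, kept 15.8% of its containing mean, and Slc39a4, a zinc importer, 7.35%. Col4a4, a collagen chain of specialised basement membranes, had 1.17 and 1.35 CPM against 4.31, 7.34 and 8.83 CPM, and its partner chain Col4a3 was also called. Tc2n, Oca2 and Slc37a2 kept between 3.47% and 26.2%, with Tc2n at 4 counts in control replicate 2 and 2 in circTau6 replicate 5. The groups did not overlap for any gene named here by the rule, which picked them by this same contrast. In the 8 containing libraries Tc2n, Oca2 and Slc37a2 rose with Ttr, and for the others named by the rule edgeR gave an adjusted p between 0.0714 and 0.402.

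Transcripts of motile cilia were lower too, by less than those of the epithelium. In the ependymal and motile cilia list 21 of 22 genes passed the filter, 11 were called lower (2.26% over all genes), all 21 had a negative log2 fold change, and the median was -1.24, against a median of 0.00 over all genes tested. Foxj1, the master regulator of motile cilia, had 4.64 and 4.47 CPM against 7.85, 12.9 and 14.8 CPM. Tekt1, a filament protein of the ciliary axoneme whose promoter is printed above, had 2.06 and 1.42 CPM against 4.01, 5.01 and 5.89 CPM. Rsph4a, of the radial spoke head, kept 5.05 and 5.69 CPM against 9.17, 11.2 and 13 CPM, and the dynein heavy chain Dnah11 kept 2.58 and 2.64 CPM against 5.12, 6.66 and 8.79 CPM. In all 4 the poor libraries lay below the others, at 34.2% to 48.6% of the containing mean. The naming rule also picked Spag16, of the axoneme's central pair, at 17.9%, and Fhad1 at 39.8%. In the 8 containing libraries 1 gene of the list, Rsph1, rose with Ttr, and the median slope was 0.42. Whether cilia and epithelial genes differ in slope was not tested.

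Gene Ontology terms in the deposited annotation, picked after values were seen, were counted in the same way. Of 122 tested genes of the axoneme 25 were called lower (20.5%), and of 137 of the motile cilium 27 (19.7%). The basement membrane term had 13 of 98 lower (13.3%), the apical plasma membrane term 30 of 313 (9.58%) and the bicellular tight junction term 8 of 101 (7.92%). These counts include genes of the choroid plexus and cilia lists. Outside those lists the axoneme had 19 of 115 lower and the motile cilium 22 of 130. The basement membrane then had 11 of 96, the apical plasma membrane 16 of 296 and the tight junction 6 of 97. The postsynaptic density term had 1 of 285 lower (0.351%) and the myelin sheath term 0 of 177. Over all genes tested 2.26% were called lower.

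Lists for other cells of the ventricle and meninges held few called genes. Of all genes 2.26% were called lower and 0.118% higher, so lists of 4 to 12 genes would hold few calls at that rate. Those rising with Ttr were 1.32% of all genes. Of 12 genes of meningeal and stromal fibroblasts 1 was called lower, the leptin receptor gene Lepr, with 3.29 and 2.98 CPM against 9.42, 14.6 and 20.7 CPM. The list summed to 149 and 121 CPM in the poor libraries, inside the containing range of 96.3 to 298 CPM. Lepr and Lum, a small proteoglycan, rose with Ttr at slopes of 0.65 ± 0.14 (SE; edgeR adjusted p = 0.025) and 0.89 ± 0.18 (SE; edgeR adjusted p = 0.021), and all 12 slopes were positive. The median slope of the 12 was 0.96. In 3 of the 12, Lepr, Lum and Dcn, both poor libraries lay below all 8 others, against 6.55% of all genes. Of 4 genes of fenestrated endothelium, the leaky kind in choroid plexus capillaries, 0 were called: Plvap, of the fenestral diaphragm, had 4.35 and 6.16 CPM against 3.59 to 12.1 CPM. Of 10 genes of blood-brain barrier endothelium 1 was called lower, Slco1c1, a thyroxine transporter that choroid plexus also expresses, with 45.3 and 43.0 CPM against 56.3 to 92.7 CPM. Pericyte and smooth muscle genes numbered 0 of 9 called, of which Tagln and Myh11 rose with Ttr, border macrophage genes 0 of 6, with sums of 14.3 and 16.1 CPM against 9.31 to 31.4 CPM, and genes of MHC class II presentation 0 of 7, with sums of 24.4 and 20.2 CPM against 22.3 to 89.7 CPM. That MHC class II range pools both treatments. Cd74 of that list ran from 5.54 to 7.91 CPM in containing controls and from 13.9 to 32.8 CPM in containing circTau6 libraries. Set against its own treatment's containing mean, circTau6 replicate 5 gave log2 differences of -2.25 for Cd74, -2.18 for H2-Aa and -1.94 for H2-Eb1. Control replicate 2 gave 0.07, -0.33 and 0.03 for these genes. For H2-DMb1 the values were -0.69 and -0.53 in the same order. The cause was not tested. Red blood cell genes, 0 of 4 called, summed to 10.3 and 2.98 CPM against 7.39 to 63.0 CPM. Median slopes on Ttr were 0.90 for the 6 border macrophage genes, 0 of them called rising, against 0.84 for choroid plexus genes. They were 0.31 for fenestrated endothelium, 0.29 each for pericyte and smooth muscle and for MHC class II, and 0.15 for barrier endothelium. Both poor libraries lay below all 8 others for Emcn, of fenestrated endothelium, and H2-Aa, and above them for Cd34. Whether the lists differ in slope was not tested.

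Lists for cells of the hippocampus proper held no gene called in the comparison of the sets, where 2.26% of all genes were called lower and 0.118% higher, so lists of 5 to 10 genes would hold few calls at that rate. Homeostatic microglia had 0 of 9 called, with log2 fold changes of 0.02 to 0.15, and myelinating oligodendrocytes 0 of 10, with -0.16 to 0.09. Astrocyte genes had 0 of 10 called, with 0.02 to 0.21, and the poor libraries lay above all others for Slc1a2, Slc1a3 and Gja1, which encode glutamate transporters and connexin 43 (3 of 10, against 4.28% of all genes). Slc1a2 had 3364 and 3468 CPM against 2827, 3046 and 3214 CPM. CA1, CA3 and dentate lists had 0 of 5, 0 of 5 and 0 of 6 called, with medians of 0.07, -0.03 and 0.00. Interneuron and immature neuron lists had 0 of 8 and 0 of 8 called, with medians of 0.15 and 0.14. The list of B cells and plasma cells, which are not cells of the hippocampus proper, had 0 of 3 called and a median of -1.11. It summed to 34.4 and 36.6 CPM in the poor libraries against 18.1 to 173 CPM in the containing ones. The interneuron list summed to 957 CPM in both poor libraries against 847 to 927 CPM, and 2 of its 8 genes, Gad2 and Cck, lay above all others. Mag, a myelin glycoprotein, had 105 and 108 CPM against 112 to 131 CPM and lay below them. Immediate early genes, which neuronal activity induces, had 0 of 10 called, all 10 with positive log2 fold changes and a median of 0.40. Their sum was 345 and 521 CPM against 207 to 388 CPM, so that circTau6 replicate 5 lay above the range and control replicate 2 inside it. Lists for neighbouring regions gave 0 of 8 called for thalamus and habenula, 0 of 5 for neocortex and 1 of 7 for striatum. For neocortex the median was 0.31 on the log2 scale, 5 of 5 being above 0, and the summed level was 258 and 281 CPM in the poor libraries against 157 to 246 CPM, so both lay above the containing range. The part of neocortical tissue in the results was not tested. The striatum gene was Ppp1r1b, which encodes DARPP-32 and is also known in choroid plexus. It had 32.8 and 32.0 CPM against 48.3, 67.7 and 82.1 CPM, and rose with Ttr at a slope of 0.48 ± 0.07 (SE; edgeR adjusted p = 0.000735).

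**Figure D4:**
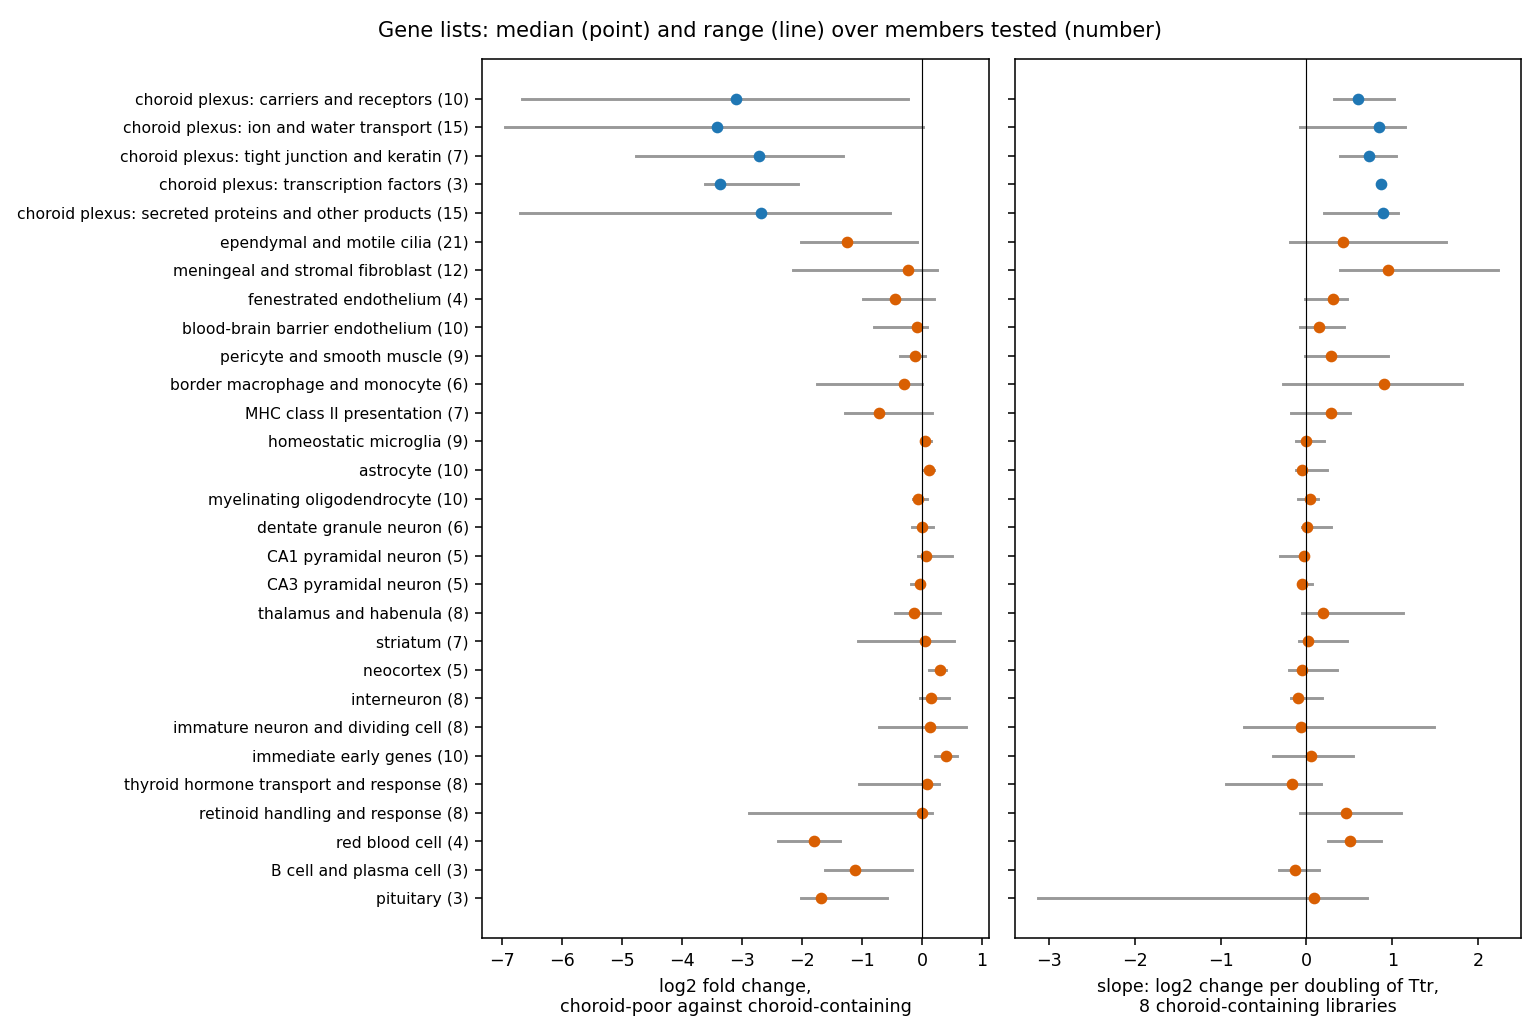
Points give the median and lines the range over the tested members (number in brackets) of each gene list, as the log2 fold change of choroid-poor against choroid-containing libraries (left) and as the slope on log2 Ttr within the 8 choroid-containing libraries (right). The 5 choroid plexus lists (upper points) have medians of -3.42 to -2.68 on the left, the cilia list -1.24, and the microglia, astrocyte and oligodendrocyte lists -0.07 to 0.12.

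The 17 genes called higher (0.118%) were under 2-fold higher, except Rspo1. Rspo1, a secreted enhancer of Wnt signalling, had 2.06 and 2.71 CPM against 0.324, 0.8 and 1.25 CPM, at a log2 fold change of 1.72 ± 0.41 (SE). Nrsn1, a neuronal vesicle membrane protein, had 237 and 246 CPM against 202, 211 and 216 CPM. Nova1, a neuronal splicing factor, had 71.2 and 82.8 CPM against 54.1, 58.8 and 68.5 CPM, and Pou3f2, a neural transcription factor, 18 and 19.1 CPM against 9.66, 12.7 and 14.6 CPM. The groups did not overlap in any of the 17, which this same contrast picked. Of all genes 4.28% had both poor libraries above all 8 others. The log2 fold changes of the others named, Lamp5, Etv5, Stk32c, Osbpl3, Baalc, Efhd2, Atxn1 and Cacng2, were 0.23 to 0.47. In the 8 containing libraries edgeR gave adjusted p values of 0.119 to 0.999 for the slopes of the 12 named genes. This count depended on single libraries: 2 genes were called higher without control replicate 1, 4 without control replicate 3, and 35 without circTau6 replicate 2. The 17 calls did not hold when either poor library was left out, a fit that keeps 1 poor library.

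Carriers' partners were followed through lists for thyroid hormone and retinoid handling. Thyroid hormone genes had 0 of 8 called in the comparison of the sets, and Hr, a textbook thyroid hormone target in brain, had 14.6 and 19.6 CPM against 10.03, 13.8 and 18.8 CPM. Dio2, the deiodinase that activates thyroxine, had 65.1 and 69.4 CPM against 49.2 to 71.7 CPM, and among the 8 libraries it fell with Ttr at a slope of -0.32 ± 0.07 (SE; edgeR adjusted p = 0.0305). Of 8 retinoid genes 2 were called lower, against 2.26% of all genes, the retinol dehydrogenases Rdh5 and Rdh10. Rdh5 had 1.88 and 0.881 CPM against 4.95, 10.8 and 13.2 CPM and rose with Ttr at a slope of 0.82 ± 0.14 (SE; edgeR adjusted p = 0.00513). Rdh10 had 11.2 and 9.55 CPM against 13.6, 14.0 and 16.0 CPM, with a slope of 0.02 ± 0.10 (SE; edgeR adjusted p = 0.955). Lhb, a pituitary hormone gene, was also called lower, at 0.646 and 0.271 CPM against 1.45 to 2.51 CPM, while Gh and Pomc, the other tested genes of its list, had overlapping groups. The symbol Lhb stands on more than 1 row of the table, so its identity is uncertain.

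The 2 poor libraries came from different treatments and share no library in the comparison within each treatment, where 1 library is set against 4 with no test. Genes at least 2-fold from the mean of the 4 and outside their range, using log2 CPM (prior count 2), were counted. Control replicate 2 had 344 such genes lower (2.39%) and 60 higher (0.417%), and circTau6 replicate 5 had 466 lower (3.24%) and 34 higher (0.236%). The lower sets shared 217 genes, 63.1% of those of control replicate 2 and 46.6% of those of circTau6 replicate 5. Leaving aside the choroid plexus and cilia lists, 171 genes were shared, 58.4% and 41.2%. The higher sets shared 3 genes, 5% and 8.82%: Rspo1, Mei1 and the predicted gene Gm20458, named after their values were seen. Of the 60 genes higher in control replicate 2, 8 were past the same limits in the opposite direction in circTau6 replicate 5, and the median change of the 60 there was -0.08 on the log2 scale. Ttr was lower by 6.38 and 6.86 on the log2 scale in the control and circTau6 comparisons.

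Whether the poor library departed from its group differently in the 2 treatments was tested as an interaction. edgeR called 0 of 14396 genes (0%), with 398 at an unadjusted p under 0.05 and a lowest adjusted p of 0.55, and limma voom called 0. DESeq2 called 6, namely Cd74, Etnppl, Fam107a, Mid1, Mobp and Tsc22d3. Cd74, the MHC class II invariant chain, differed from the mean of its group by 0.07 on the log2 scale in control replicate 2 and by -2.25 in circTau6 replicate 5, and its levels were 7.05 and 4.34 CPM against 5.54, 10.9 and 32.8 CPM. With 1 poor library per treatment, each is assumed to vary like the other libraries. The comparison of circTau6 with control gave 0 genes by edgeR both with the sets as a term (lowest adjusted p = 0.0524, 685 genes at an unadjusted p under 0.05) and without them (lowest adjusted p = 0.0713, 637 genes).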

How the data were processed

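Counts and TPM per gene and library are as the authors deposited them in 1 table of 21956 genes, with units per the file headers. The table also holds the authors' log2 fold change and p-value columns, which were not used. RNA was ribosome-depleted and libraries strand-specific per the labels' protocols, and StringTie 1.3.1 and RSEM appear in the submitters' processing notes. Neither aligner nor genome build is given in the sources used here. From the counts, 14396 genes were kept by filterByExpr with treatment groups and scaled by TMM. They were tested with edgeR 4.0.16 in R 4.3.3 (quasi-likelihood, robust, Benjamini-Hochberg over all genes, threshold 0.05), with treatment as a covariate. Each SE was derived from the fit as the absolute log2 fold change or slope divided by the square root of its F statistic. In the comparison of the sets it is a description and no test. Alternatives were DESeq2 1.42.0, limma 3.58.1 (voom), other scalings, filters and thresholds, a replicate block, no treatment covariate, and leaving out each library. The code was tested on simulated counts. All 45 library pairs differed beyond sampling noise (chi-square per degree of freedom 4.07 to 29.2). The labels give all mice 1 genotype and age and do not tell individual mice apart, so p-values measure the spread between these samples.

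Libraries, gene lists and tests were chosen with earlier results of these data known. Named genes were all choroid plexus list members, the 12 lower and 12 higher called genes of lowest p with a mean of at least 1 CPM and outside those lists (predicted genes and pseudogenes left out), 6 genes each way for the slope, and up to 4 members of each other list by p. Other genes (Col4a3, Rsph1, Tagln, Mei1, Gm20458 and the DESeq2 genes) were named after their values were seen. Promoters were matched by symbol for 41 of 51 choroid plexus genes and 18 of 22 cilia genes. Some genes that the rule names are not reported here.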

Additional observations from a re-analysis of the deposited data

Results flagged for a closer look

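The 34 groups of values examined within the 8 choroid-containing libraries held 1 sample far from the others, by a criterion that chance meets in about 5% of groups. The mean log2 CPM of the red blood cell list was 3.78 in control replicate 3 and between 0.77 and 2.02 in the other 7 choroid-containing libraries.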

How the results depend on the processing

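Scaling (relative log expression or library totals), a 1 CPM filter and leaving out the treatment covariate kept the counts of the set comparison and the slope within 1.5 times. DESeq2 gave 47 higher, 53 falling and 6 interaction genes, limma voom 38 higher and 8 falling, and no low-count filter 23 falling. At an adjusted p under 0.01 there were 160 lower, 0 higher, 90 rising and 1 falling genes. With the replicate number as a block 108 were lower and 2 higher, and neither of the 2 was among the 17 genes called higher in the main fit. The numbers do not pair the samples (correlations of same-numbered libraries -0.08 to 0.14, 0 of 5 highest with their own number). Leaving out 1 library gave 17 to 500 lower, 0 to 35 higher, 14 to 244 rising and 1 to 25 falling genes, and 0 interaction genes throughout. Without both libraries farthest from the median Ttr, chosen after seeing the data, 12 rose, 3 fell, and Bmp6 had a slope of -0.11. Within treatments, a 4-fold limit gave 106 and 140 lower genes for control replicate 2 and circTau6 replicate 5, 82 in both, 5 and 4 higher and 0 in both. Leaving out 1 library gave 31 to 58 higher genes for circTau6 replicate 5 and 3 to 5 in both. The difference, poor minus containing, was then -1704950 to 560693 in total count and -0.134 to 0.0592 percentage points in mitochondrial share. The cause of these changes was not tested, and each leave-one-out fit also has fewer libraries. At this depth genes under 0.203 CPM cannot be told from 0 in the shallowest library.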
